A study of Homo sapiens with 8 samples.

Results

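The genes that encode the enzymes writing and erasing N6-methyladenosine (m6A) in mRNA were examined for binding sites of YTHDF2 in HEK293T cells, an established human embryonic kidney line. They were METTL3, METTL14, METTL16, WTAP, VIRMA, ZC3H13, CBLL1, ALKBH5 and FTO, chosen by name for their role. Their sites were all distinct positions of the deposited list that lay inside the gene on its strand, 74 of 37613 positions (0.197%). All cells carried the label of wild-type genotype, and YTHDF2 was precipitated with an antibody from cells grown for 12 h with 20 µM STM2457, an inhibitor of METTL3, in 0.2% DMSO (4 libraries) or with 0.2% DMSO alone (4 libraries). The question behind the 2 treatments was how far YTHDF2 binding needs m6A. The deposited list gives 1 score per row and nothing for single libraries. The effect of STM2457 relative to DMSO was therefore not analysed here, and neither the spread between replicates nor the read depth of a site is known. With no values per library, nothing below was tested, and counts are set beside the same counts over all genes or all sites as a description.

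The mark m6A is placed on nascent mRNA by a nuclear complex in which METTL3 carries the catalytic activity and METTL14 helps to hold the RNA, while WTAP, VIRMA, ZC3H13 and CBLL1 anchor the complex and guide it to its targets. ALKBH5 and FTO remove the methyl group again. YTHDF2 is a cytoplasmic reader that binds m6A-bearing mRNA and brings in deadenylases, so the mRNAs of writers and erasers can themselves be bound by this reader. In iCLIP2, the mapping method used, ultraviolet light fixes the protein to RNA, and the cDNA made from the recovered RNA ends where the protein was attached. Each site in the deposited list is 1 nt wide, and close sites were counted separately except where merging is stated.

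All 9 genes had at least 1 YTHDF2 site, whereas 39% of the 19942 protein-coding genes of the RefSeq table did. ZC3H13 had the most with 14 sites, a number reached or passed by 391 protein-coding genes, but with sites within 50 nt merged it had 8, below VIRMA with 10 and WTAP and ALKBH5 with 9 each. WTAP, VIRMA and ALKBH5 followed with 11 sites each, METTL16 with 9, CBLL1 with 6, METTL3 with 5, METTL14 with 4 and FTO with 3. The median was 9 sites, against 3 over all genes with a site (quartiles 2 and 6), so 8 of the 9 lay above that median and FTO lay on it. Of the 9 genes, 4 had 10 or more sites, as did 4.95% of all protein-coding genes, and after that merging 1 of the 9 did, against 2.93%. The number of sites a gene can yield also depends on how much of its mRNA the cells hold and on the length of that mRNA, neither of which was measured here.

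**Figure D1:**
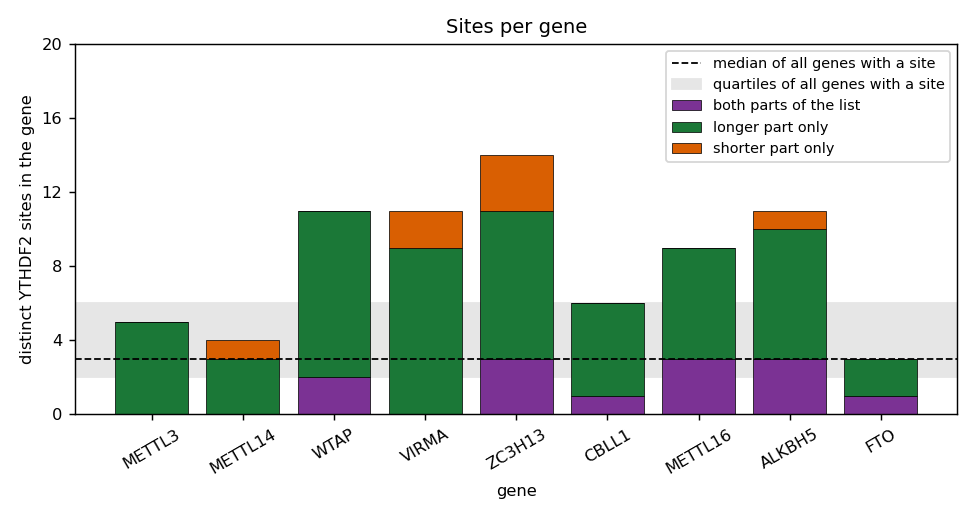
Distinct YTHDF2 sites (y axis, count) in each of the 9 genes (x axis), with colours for positions listed in both parts of the deposited list, in its longer part only or in its shorter part only. The dashed line is the median of 3 sites and the grey band the quartiles of 2 and 6 over all genes with a site, and WTAP, VIRMA, ZC3H13, METTL16 and ALKBH5 stand above the band.

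Per kb of genomic gene length, introns included, the order was different. ALKBH5 had 0.421 sites per kb, METTL3 0.379, WTAP 0.371, CBLL1 0.342, VIRMA 0.167, ZC3H13 0.142, METTL14 0.133 and METTL16 0.0936, against a median of 0.109 over all genes with a site (quartiles 0.0400 and 0.301). FTO, which spans 418 kb, had 0.00718 sites per kb, and 96.5% of genes with a site were denser. The 4 densest genes span between 13.2 and 29.6 kb, and the other 5 are longer.

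Most of the 74 sites lay in stretches of several sites, which is also so over the whole list. Joining neighbours up to 1000 nt apart gave 26 stretches, of which 11 held a single site and 9 held 4 or more. Those 9 stretches held 48 of the 74 sites (64.9%), against 59.6% of all sites by the same rule. The densest 1000 nt of each gene held 44 of the 74, a count that was not made over all genes. The longest of these windows was 993 nt, in CBLL1. Of the 74 sites, 30 had a neighbour within 50 nt (40.5%), against 29.7% of all positions in the list. ZC3H13 alone held 10 of those 30, among its 14 sites, and FTO held none. In METTL14, CBLL1 and FTO every site fell within a single stretch of under 1000 nt, which was also so in 27.4% of all genes with 3 or more sites.

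**Figure D2:**
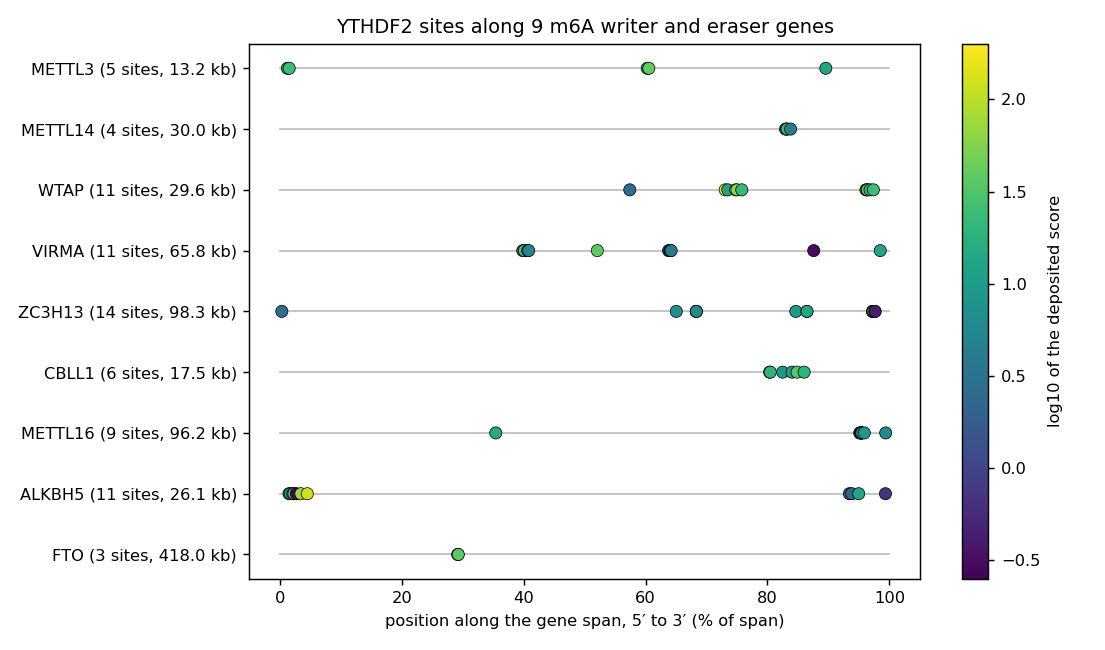
Each circle is a YTHDF2 site at its place along the gene (x axis, percent of the gene span from the 5′ to the 3′ end), coloured by the log10 of its deposited score, and circles of close sites overlap. The sites of METTL14, CBLL1 and FTO sit in 1 place each, whereas those of ALKBH5 split between both gene ends and those of ZC3H13 reach over 97.3% of the span.

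The catalytic subunit METTL3 carried 5 sites on the minus strand of chromosome 14 (GRCh38). A pair at 21511177 and 21511138 had scores of 11.7 and 25.1 and lay 163 and 202 nt from the 5′ end of the gene. A second pair at 21503382 and 21503348 had scores of 7.99 and 40.9, and the last site, at 21499514, had a score of 13.1. The METTL3 sites thus stood as 2 close pairs, 39 and 34 nt apart, and a lone site towards the 3′ end. None of them lay where the 3′ end of METTL3 overlaps TOX4, a gene of the other strand.

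METTL14, the partner of METTL3 that lacks catalytic activity of its own, carried 4 sites within 250 nt on the plus strand of chromosome 4, about 83% of the way along the gene. Their positions were 118710312, 118710377, 118710385 and 118710561, with scores of 2.64, 2.17, 23.2 and 3.95. A single site of the 4, at 118710385, stood above the median score of the list, 8.67.

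Of the regulatory subunits, WTAP, the adaptor that brings the catalytic pair to nuclear speckles, had the highest scores. Its 11 sites lay on the plus strand of chromosome 6. A lone site at 159743702 had a score of 2.56. A stretch of 5 followed from 159748340 to 159749145, with scores of 180, 12.7, 42.0, 64.1 and 22.4. A second stretch of 5 ran from 159755180 to 159755543, between 776 and 1139 nt from the 3′ end of the gene, with scores of 26.5, 63.3, 34.7, 18.2 and 24.8. Apart from the lone site, every WTAP site was above the median of the list. The score of 180 at 159748340 was the highest over the 74 sites, and 3.28% of all genes with a site had a highest score at or above it. WTAP lies inside the span of SOD2, the mitochondrial superoxide dismutase gene, which is transcribed from the other strand, so its sites were assigned by strand.

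**Figure D3:**
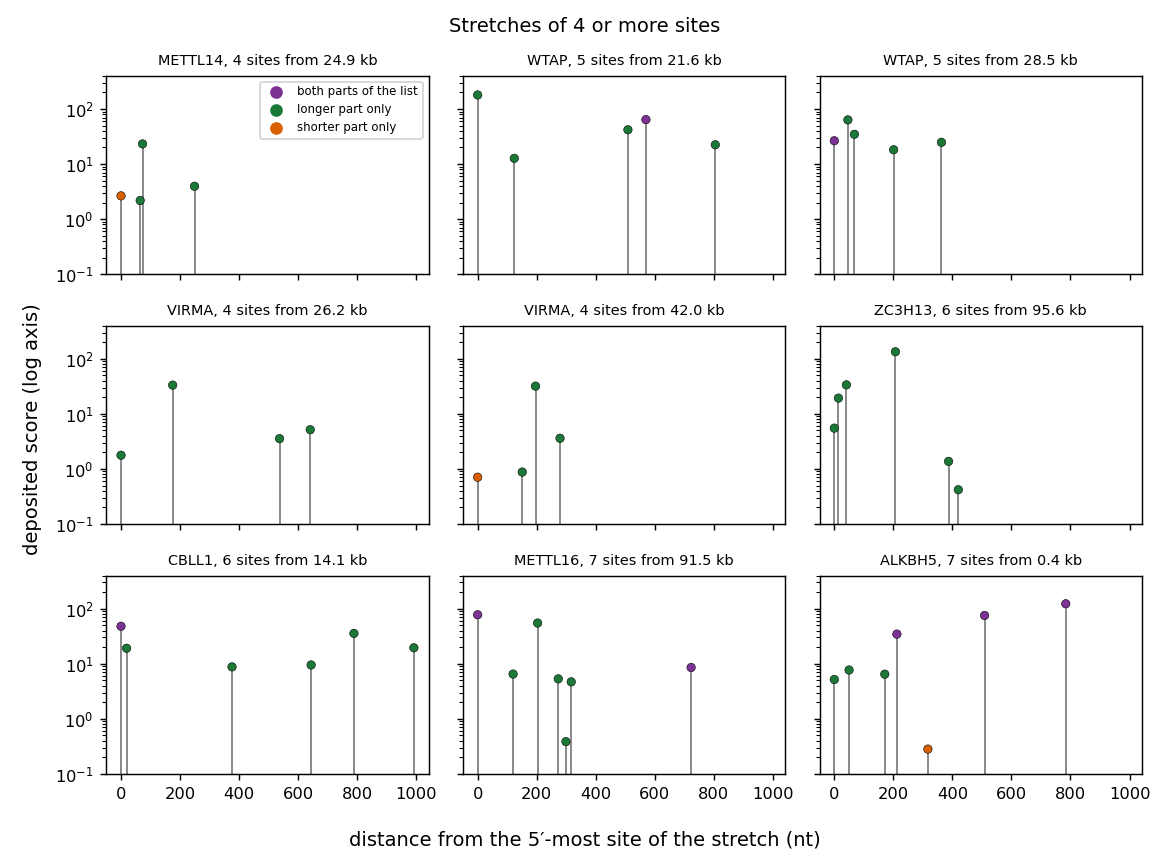
Deposited score (y axis, log scale) against distance from the 5′-most site (x axis, nt) for the 9 stretches with 4 or more sites, coloured as in the plot of sites per gene, where panel titles give the distance of the stretch from the gene's 5′ end. In METTL14 and in both VIRMA stretches a single site stands above the others, whereas the 5 sites of the second WTAP stretch lie between 18.2 and 63.3.

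VIRMA, the large scaffold subunit linked to methylation near stop codons and in 3′ untranslated regions, had 11 sites on the minus strand of chromosome 8. A stretch of 4 between 94526617 and 94527258 had scores of 1.77, 33.3, 3.55 and 5.16 from 5′ to 3′. A lone site followed at 94519210 with 38.8, and a second stretch of 4 between 94511239 and 94511518 had 0.708, 0.878, 31.9 and 3.61. The 2 stretches were alike in that 1 site of each stood well above the list's median and the other 3 stayed under it. The last sites, at 94495851 and 94488672, had scores of 0.309 and 12.1. The median score over VIRMA was 3.61, against 8.67 over the list.

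ZC3H13, a zinc finger protein that keeps the complex in the nucleus, had 14 sites on the minus strand of chromosome 13. A lone site at 46052434, 312 nt from the 5′ end, had a score of 2.90, and the next, 63.6 kb away at 45988826, had 6.83. Then came 3 sites spaced 9 nt apart, at 45985602, 45985593 and 45985584, with 88.6, 11.3 and 6.09. This was the tightest group of 3 sites over the 9 genes. A site at 45969553 had 9.66, and a pair at 45967764 and 45967742 had 17.8 and 13.4. The last stretch, from 45957183 to 45956763, held 6 sites with scores of 5.51, 19.3, 33.7, 135, 1.37 and 0.419, the highest being at 45956976. The ZC3H13 sites thus combined 2 scores within the highest 10% of the list with some of the lowest over the 9 genes.

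CBLL1, also called HAKAI, is a RING-type ubiquitin ligase that is also a stable part of the writer complex. Its 6 sites lay on the plus strand of chromosome 7 at 107758225, 107758244, 107758601, 107758869, 107759014 and 107759217, with scores of 47.9, 19.1, 8.77, 9.49, 35.6 and 19.5. All were above the list's median, and the nearest to the 3′ end of the gene was 2450 nt from it.

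METTL16 acts apart from the complex, methylating the U6 small nuclear RNA and hairpins in the mRNA of MAT2A, the enzyme that makes the methyl donor S-adenosylmethionine. Its 9 sites lay on the minus strand of chromosome 17. A lone site at 2477819 had a score of 14.4. A stretch of 7 between 2419673 and 2420396, 57.4 kb further on, had 77.6, 6.49, 54.8, 5.31, 0.385, 4.69 and 8.55 from 5′ to 3′. The last site, at 2416293 and 578 nt from the gene's 3′ end, had 5.42. So 2 sites of the stretch were among the highest-scoring 10% of the list and the other 5 lay below its median. MAT2A itself had 0 sites in the list.

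The 2 demethylases differed in where their sites lay. ALKBH5, a nuclear dioxygenase, had 11 sites on the plus strand of chromosome 17, and 7 of them fell between 18184219 and 18185003, the first 391 nt and the last 1175 nt from the 5′ end of the gene. Their scores were 5.18, 7.70, 6.46, 34.5, 0.282, 75.3 and 123 from 5′ to 3′. The 4 sites near the 3′ end, at 18208239, 18208341, 18208641 and 18209787, had 1.69, 2.12, 13.3 and 0.657. The 3 highest ALKBH5 scores were all in the 5′ stretch. With 6 of its 11 sites in the first 1000 nt, ALKBH5 was the only one of the 9 genes to have most of its sites there, as did 3.23% of all genes with 3 or more sites.

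FTO, the first m6A demethylase described and the gene of an obesity-associated locus, had 3 sites within 334 nt on the plus strand of chromosome 16, at 53825982, 53826069 and 53826315. Their scores were 13.0, 9.62 and 36.8, all above the list's median. The first of them lay 122.0 kb from the 5′ end and 296.0 kb from the 3′ end of the gene, and the rest of its span held 0 sites.

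Sites in the last 1 kb numbered 5 of 74 over the 9 genes (6.76%), against 16.9% of all sites, each counted in every gene that holds it. WTAP had 2 of them and VIRMA, METTL16 and ALKBH5 had 1 each, and METTL3, METTL14, ZC3H13, CBLL1 and FTO had none. Thus 4 of the 9 genes had a site there, as did 37.8% of all genes with a site. Over the last 2 kb the counts were 12 of 74 (16.2%), against 30.5% of all sites. The first 1 kb held 9 of 74 sites (12.2%), 6 of them in ALKBH5, 2 in METTL3 and 1 in ZC3H13, against 5.43% of all sites. Thus 3 of the 9 genes had a site in the first 1 kb, against 14.4% of all genes with a site, and without ALKBH5 the count would be the 3 sites of METTL3 and ZC3H13. Such shares of genes also rise with the number of sites per gene. Its median was 9 over the 9 genes and 3 over all genes with a site. These distances run along the gene with its introns. Whether a site lies in an exon, an intron, coding sequence or an untranslated region was not analysed here, nor was the sequence around it.

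Scores over the 74 sites ran between 0.282 and 180 with a median of 11.9, against 8.67 over the list (quartiles 3.75 and 20.8). At or above the list's median were 43 sites (58.1%), against 50% by construction, and 10 sites (13.5%) were among the highest-scoring 10% of the list, at 47.0 or more. Those 10 were 3 in WTAP, 2 each in ZC3H13, METTL16 and ALKBH5, and 1 in CBLL1. METTL3, METTL14, VIRMA and FTO had none. This rests on the higher score of positions on 2 rows. Ranked by the lower score, both ALKBH5 sites (percentiles 68.5 and 83.1) and the CBLL1 site (41.7) fall below the highest 10%. So does 1 site each of WTAP, ZC3H13 and METTL16. The WTAP site at 159748849 (91.5), the METTL3 site at 21503348 (91.3) and the VIRMA site at 94519210 (90.6) then enter it. Membership thus depends on which row is read. By gene, the share at or above the median ranged widely, being 10 of 11 in WTAP, 6 of 6 in CBLL1, 3 of 3 in FTO, 4 of 5 in METTL3 and 8 of 14 in ZC3H13, but 4 of 11 in VIRMA and in ALKBH5, 3 of 9 in METTL16 and 1 of 4 in METTL14. No source used here gives the scale of the score, so these values rank sites and are not amounts of binding.

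**Figure D4:**
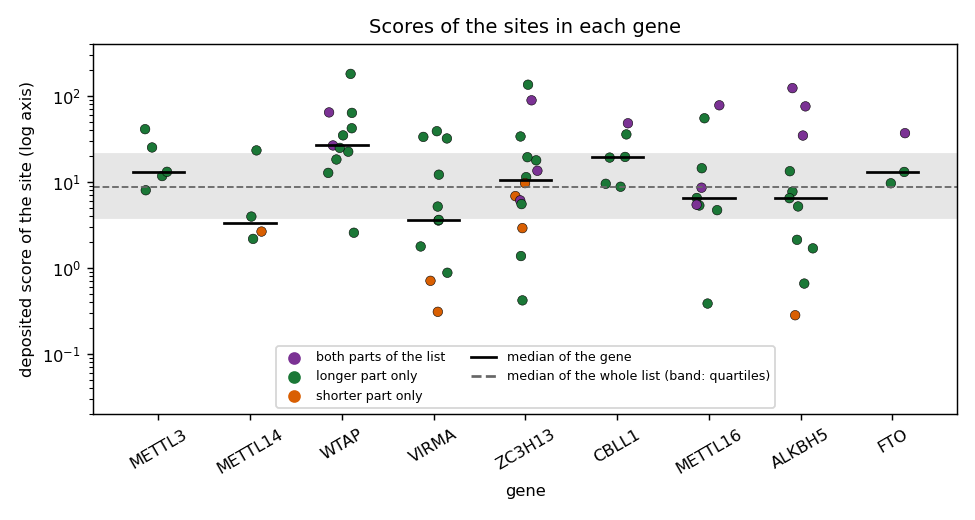
Deposited score (y axis, log scale) of each site in the 9 genes (x axis), with the median of each gene as a black bar and the list's median of 8.67 and quartiles as the dashed line and the grey band. The medians of WTAP (26.5), CBLL1 (19.3), METTL3 (13.1), FTO (13.0) and ZC3H13 (10.5) lie above the dashed line and those of METTL14 (3.30), VIRMA (3.61), METTL16 (6.49) and ALKBH5 (6.46) below it.

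By the order of its rows, the deposited list falls into a shorter part of 8935 rows and a longer part of 34243, and a position can be in both. No label says which libraries either part stands for. Of the 74 sites, 13 were in both parts (17.6%, against 14.8% of all positions), 54 in the longer part only (73.0% against 76.2%) and 7 in the shorter part only (9.46% against 8.96%). The sites in both parts were 3 each in ZC3H13, METTL16 and ALKBH5, 2 in WTAP and 1 each in CBLL1 and FTO, with none in METTL3, METTL14 or VIRMA. All METTL3 sites came from the longer part.

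Where a site had a score in each part, the values above are the higher of the 2, and the score was higher in the longer part at 9 of 13 sites, against 70% over the list. The ALKBH5 site at 18185003 had 123 in the longer part and 23.9 in the shorter, and the METTL16 site at 2420396 had 77.6 and 11.4. The CBLL1 site at 107758225 had 47.9 and 5.56, and the FTO site at 53826315 had 36.8 and 6.48. The ZC3H13 site at 45967742 had the widest gap as a ratio, with 13.4 in the longer part and 0.582 in the shorter. The reverse was seen at the ALKBH5 site at 18184431, with 21.9 in the longer part and 34.5 in the shorter, and at 1 site each of WTAP, ZC3H13 and METTL16. The rank of a site can therefore depend on which row is read.

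**Figure D5:**
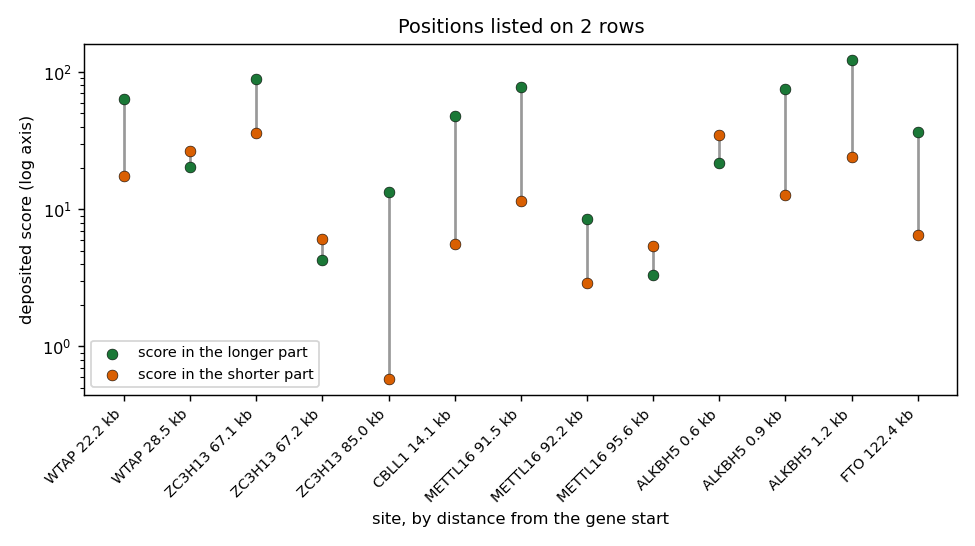
Scores (y axis, log scale) of the 13 sites that the list gives on 2 rows (x axis, named by gene and distance from the gene's 5′ end), in the longer part (green) and in the shorter part (orange). The longer part is higher at 9 of the 13.

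Other genes of the m6A pathway, from lists chosen with earlier results of these data known, were bound to varying extents. They are read here against the 39% of all protein-coding genes that had a site. Of 7 further methyltransferase and accessory genes, 3 had a site, a share near that of all genes. RBM15B with 23 and RBM15 with 18, the RNA-binding subunits that recruit the writer complex, had more than any of the 9 genes above, METTL4 had 6, and METTL5, its partner TRMT112, ZCCHC4 and PCIF1 had 0. Of 14 m6A readers or proposed readers, 13 had a site, with a median of 4, led by PRRC2A at 21, YTHDF2 itself at 13, YTHDF3 at 12 and YTHDF1 at 11, while FMR1 had 0.

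Genes listed around the methyl donor and its by-product had a site in 3 of 6 cases, again not far from the 39% of all genes. There were 14 in the methionine synthase MTR, 6 in AHCY, which clears the by-product S-adenosylhomocysteine, and 1 in SLC25A26. AHCYL1 and MAT2B had 0, like MAT2A. Of 7 other ALKBH genes, relatives of ALKBH5 and FTO, 5 had a site, with ALKBH4 at 7, ALKBH1 and ALKBH2 at 4 each and ALKBH8 at 3, and ALKBH6 and ALKBH7 at 0. Of 21 other METTL genes, 15 had a site, with a median of 2, led by METTL13 at 9, METTL25B at 7 and METTL4, METTL9 and METTL23 at 6 each. METTL4 and METTL5, already counted among the further methyltransferase genes, are counted again here. METTL5, METTL17, METTL21C, METTL22, METTL24 and METTL27 had 0.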

How the data were processed

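YTHDF2 iCLIP2 was made from HEK293T cells treated with STM2457 in DMSO or with DMSO alone (4 libraries each), grouped by the treatment in the labels, and separate cultures are not stated there. The deposited list has no header and gives single-nucleotide sites with the authors' score. Its scale, the site caller, the filters and any pooling of libraries are stated in none of the sources used here. The build GRCh38.p12 and the tools bedtools 2.27.1, UMI-tools 1.0.0, STAR 2.7.3a and FastQC 0.11.8 are listed, without roles, per the submitters' processing notes. Filters applied before deposit would shape every count.

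Repeated positions of a strand entered as 1 site with the higher of their scores, counted from 1 along the chromosome. Genes and spans came from RefSeq on GRCh38.p14, without readthrough genes. Patches leave the main chromosomes unchanged. Strands came from a separate promoter reference for 15766 genes, 8 of the 9 examined included. For 1223 genes missing from it, VIRMA included, the strand was that of the majority of positions. A further 2953 genes without a strand, 106 of them holding positions, counted as having 0 sites. A position in overlapping genes of its strand counted in each.

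The steps were tested on simulated data. The genes and lists were chosen with earlier results of these data known. All 9 genes are named, and of the other lists the genes with the most sites (up to 4, ties included) and those with 0. The methyl donor list was planned with 1 more gene, which was left out and is not reported here. The planned look at DRACH motifs was not made, since no genome was used here. Computation used Python 3.11.15, pandas 2.3.3 and numpy 2.4.6.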

Additional observations from a re-analysis of the deposited data

How the results depend on the processing

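No paired analysis was possible because the list has no value per library, and for the same reason no replicate could be left out. The 74 sites became 57 when sites within 50 nt were merged, 43 at or above the median score, 67 in the longer part alone and 20 in the shorter part alone. All 9 genes kept a site except METTL3 in the shorter part alone (0 sites) and WTAP (0 sites) when positions inside another protein-coding gene of either strand were left out. With the same strand alone considered, WTAP kept its 11. The 4 genes with 10 or more sites became 1 after merging (WTAP and ALKBH5 had 9, VIRMA 10, ZC3H13 8), 1 at or above the median score and 0 in the shorter part alone. Over all genes 988 had 10 or more, against 584 after merging, 225 at or above the median score and 17 in the shorter part alone. Sites in the last part of the gene numbered 5 over 1 kb, 12 over 2 kb and 1 over 1 kb in the shorter part alone. The densest window of each gene held 44 sites in all, whether up to 1000 or up to 2000 nt long. Joining neighbours up to 2000 nt apart gave 24 stretches in place of 26, and 52 sites in place of 48 in those of 4 or more. This joining and the split by parts of the list were chosen after seeing the data. The alternatives for DRACH motifs were not run. Depth is unknown.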
